A study of Citrus sinensis with 36 samples.

Results

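Of the genes that the study placed at the last reducing steps of monolignol synthesis, 7 were followed in sweet orange fruit. They comprised 2 cinnamoyl-CoA reductase (CCR) genes, orange1.1t02754 and Cs4g02410, and 5 genes listed as cinnamyl alcohol dehydrogenase (CAD), Cs5g01110, Cs3g26570, Cs1g04910, Cs2g10070 and Cs9g15670. The study listed 2 further genes as CAD, Cs8g04980 and Cs9g15750, which are compared with the 7 near the end. The 7 were taken by gene ID from its list of phenylpropanoid genes and are 7 of the 29654 genes of the deposited table. RNA-seq was performed on *Citrus sinensis* fruit at 220 days after flowering (DAF), with peel and pulp of 6 varieties and 3 libraries for each variety and tissue, 36 libraries in all. The common sweet oranges (COs) were Jincheng (JC), Taoye (TY) and Xianfeng (XF), and the late-ripening Valencia oranges (VOs) were Cutter Valencia (CU), Delta Valencia (DE) and Rohde Red Valencia (RR). The comparison addresses which lignin genes differ between VO and CO fruit, whose mastication trait differs. CO fruit was mature at that date and VO fruit was only coloring, so that variety class and maturity cannot be told apart. Each replicate pooled fruit of several trees, 2 by the methods and 3 by the sample records. Each class thus had 9 libraries per tissue, which held 14.82 to 18.84 M mapped fragments (M, mega).

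Lignin is a polymer of the cell wall that stiffens xylem vessels and fibres, and in citrus fruit it is found in vascular bundles, segment membranes and hardened juice sacs. Its monomers, the monolignols, are made from phenylalanine. CCR reduces the CoA esters of hydroxycinnamic acids to aldehydes, and CAD, a zinc enzyme that uses NADPH, reduces those aldehydes to the alcohols that leave the cell and polymerise.

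The descriptions deposited with each gene were checked first, because they decide what the 7 levels stand for. The best Swissprot match of orange1.1t02754 was CCR1 of Arabidopsis, the main lignin CCR of that plant, and its KEGG number K09753 was shared with its neighbour orange1.1t02755 alone. Cs4g02410 matched the CCR-like protein SNL6 of rice, which is known there for a part in disease resistance, and carried no KEGG number. Cs5g01110, Cs3g26570 and Cs1g04910 matched probable CADs (CAD1 and CAD9 of Arabidopsis and CAD6 of rice), carried the CAD number K00083 and had the zinc-binding GO term. Cs2g10070 and Cs9g15670 matched no CAD. Both matched a berberine bridge enzyme-like (BBE-like) protein of Arabidopsis, BBE13, carried K22395 and had the FAD-binding GO term in place of the zinc-binding one. In Arabidopsis, that flavoprotein oxidises monolignols to the aldehydes, the direction opposite to the reduction by CAD. In the table, 27 genes had a BBE-like match, 3 of them to BBE13, and the 5 genes of K22395 all had a BBE-like match. The search of the descriptions for CCR or CAD found 19 genes, 5 of the 7 among them, and missed these 2. They are called BBE-like below. Several of the 7 have close relatives (orange1.1t02755 beside orange1.1t02754, and the BBE-like gene Cs2g10060 beside Cs2g10070), and how the counting split fragments between near-identical copies could not be checked without their sequences.

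The only sequences at hand for these genes are the qRT-PCR primers of the study. They are shown because they name the transcripts by which a CCR-like and a BBE-like gene were followed outside the RNA-seq, the latter under the name CAD.
Cs4g02410 forward: gagaaggcgatagagaagcagatta
Cs4g02410 reverse: ctgggctatctaaacagcagaacaa
Cs2g10070 forward: catcagcttcacggacaaattc
Cs2g10070 reverse: tcgcagaaggttgagaaagg
The Cs4g02410 primers were each 25 bases long with 44% GC. Those of Cs2g10070 were 22 and 20 bases long with 45.5% and 50% GC.

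Values are FPKM, fragments per kilobase of gene per M mapped fragments. The kilobases of this table followed the whole gene span, introns included (median ratio to the RefSeq gene span 1.011 over 15237 genes), so that the FPKM of a gene with long introns is lowered and levels of different genes compare only per length of gene span. Genes entered the test of a tissue where the mean of some variety reached 0.3 FPKM. Differences between VO and CO were tested on log2(FPKM + 0.1) with limma over 3 variety means per class, adjusted over all genes kept (called at an adjusted p under 0.05). The pseudocount of 0.1 makes a log2 fold change understate the change of low genes. All 7 genes were kept in peel and 6 in pulp, where Cs9g15670 was too low. In peel Cs9g15670 and Cs3g26570, and in pulp Cs3g26570, passed this filter through the VOs alone: the highest CO variety mean was 0.14 FPKM for Cs9g15670, and 0.22 in peel and 0.083 in pulp for Cs3g26570. A gene let in by the class where it is high had to differ, so its call adds no support to a count of members called.

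On the summed level, the 12 photosynthetic marker genes separated peel from pulp within each class (29.8 to 88.0 against 14.6 to 20.5 FPKM in CO, 106.7 to 221.2 against 48.4 to 64.3 in VO), whereas the 50 cuticle and oil gland markers overlapped (among COs, 264.6 to 374.2 FPKM for peel against 126.3 to 304.5 for pulp). The 30 markers of vascular bundles and segment membranes, where lignin is laid down, summed to 44.8 to 57.0 FPKM for CO peel against 61.8 to 76.3 for VO peel. For pulp the sums were 38.6 to 56.6 FPKM among COs against 48.2 to 67.6 among VOs. Of the 17 of them tested in peel 5 rose in VOs and none fell, and likewise 5 of 18 in pulp, while 6 to 8 of the 30 were at 0 in every library of a class and tissue. Those at 0 in all 36 libraries were 4 genes matching laccase-17 (Cs1g14290, Cs7g18320, Cs7g23490 and Cs8g17590), 1 of the matches to the secondary-wall cellulose synthase CESA7 (Cs4g02000) and 1 match to the arabinogalactan protein FLA11 (Cs8g16830). Of the cuticle and oil gland markers, 5 rose and 6 fell in VOs among 27 tested in peel, and 10 rose and 2 fell among 24 tested in pulp. Photosynthetic markers were higher in VOs for 8 of 12 tested in peel and 10 of 11 in pulp. Over all genes tested, 13.2% were called higher and 7.15% lower in VOs in peel, and 12% and 7.48% in pulp. The marker counts were not tested against these shares. Markers that passed the filter through the VOs alone were not set apart, and calls of such genes add no support to the counts. The part of the cell types behind these markers in the results was not tested. In bulk tissue, fewer cells of a type and less RNA per cell cannot be told apart. The RNA integrity listed by the study was on balance lower for VO peel than for CO peel, and its part was not tested either.

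**Figure D1:**
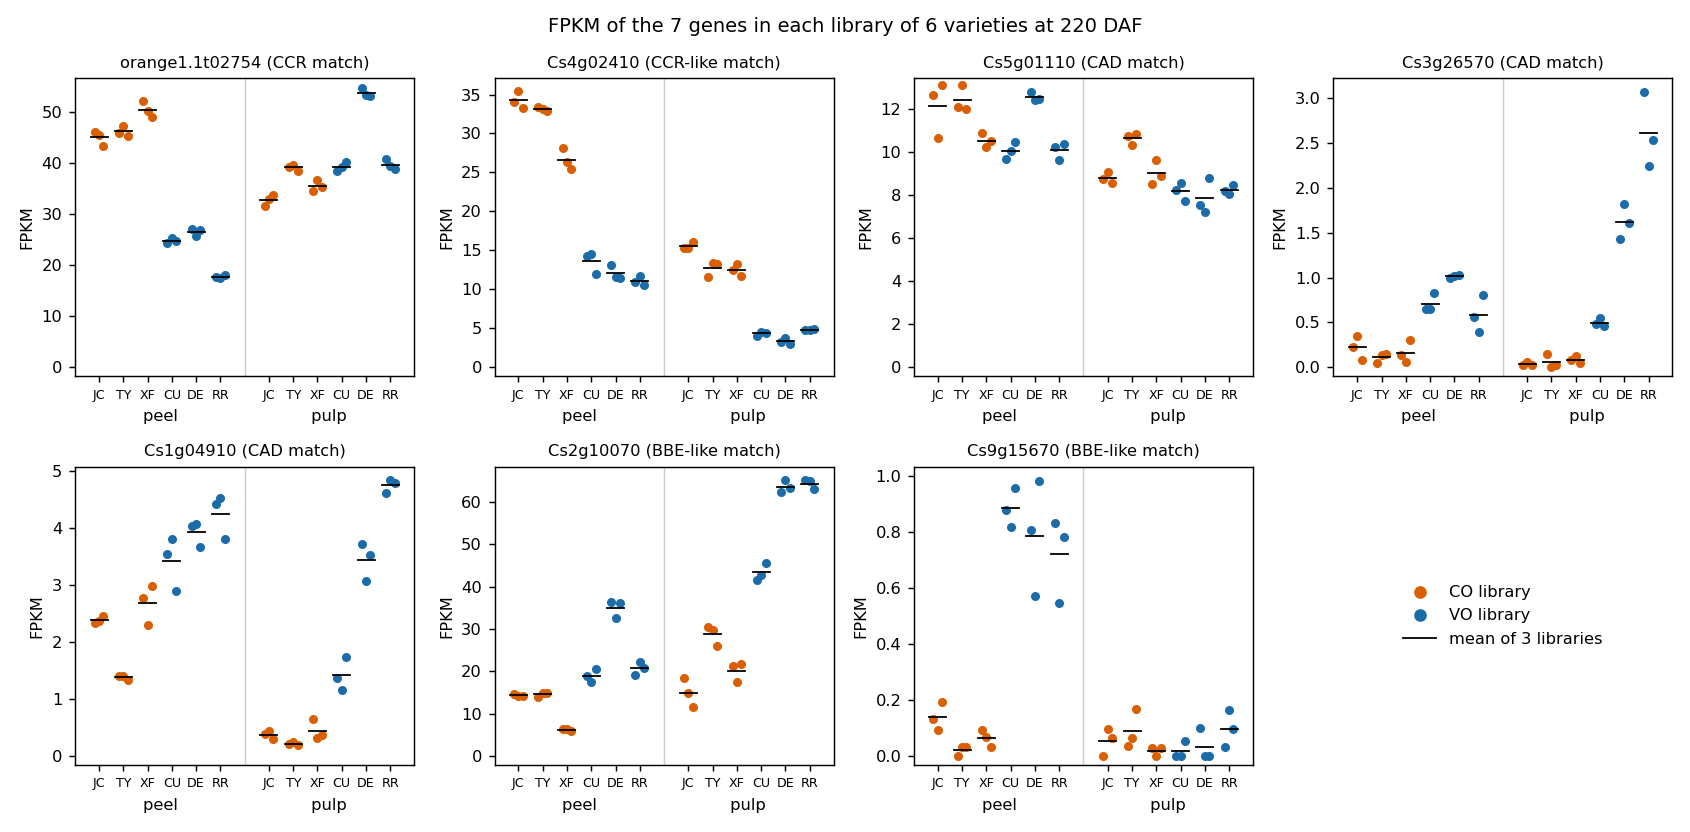
FPKM (linear axes from 0) of the 7 genes in every library, with the 6 peel sets left and the 6 pulp sets right of the grey line. Points are libraries, orange for CO and blue for VO, and bars are means of 3 libraries. Cs4g02410 was lower in VOs in both tissues, and Cs9g15670 was above 0.5 FPKM in VO peel alone.

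In peel, 5 of the 7 genes passed the test between VOs and COs, among them Cs9g15670 and Cs3g26570, which the filter let in through the VOs. Of the 5 that reached the limit in both classes, 3 were called, and in pulp likewise 3 of 5. Both CCR genes fell in VOs, while Cs3g26570, Cs1g04910 and Cs9g15670 rose. Over all 18375 genes tested in peel, 13.2% were called higher and 7.15% lower in VOs. In pulp, 4 of 6 genes passed: Cs4g02410 fell, and Cs3g26570, Cs1g04910 and Cs2g10070 rose, against 12% of the 17222 genes tested that were called higher and 7.48% called lower. The 5 that reached the limit in both classes had log2 differences of -1.35, -1.05, -0.10, 0.86 and 1.12 in peel. In pulp theirs were -1.70, -0.22, 0.29, 1.46 and 2.79. The medians over all genes tested were 0.05 in peel and 0.02 in pulp. With scaling by the median of ratios, the split of all calls in peel moved from 2426 higher and 1314 lower to 1983 and 1684. The direction of every gene called here stayed the same, but the peel call of Cs1g04910 was lost (limma, adjusted p = 0.060). With 3 varieties against 3, an exact permutation test over varieties cannot give a two-sided p below 0.10, so the calls rest on limma's pooled spread.

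**Figure D2:**
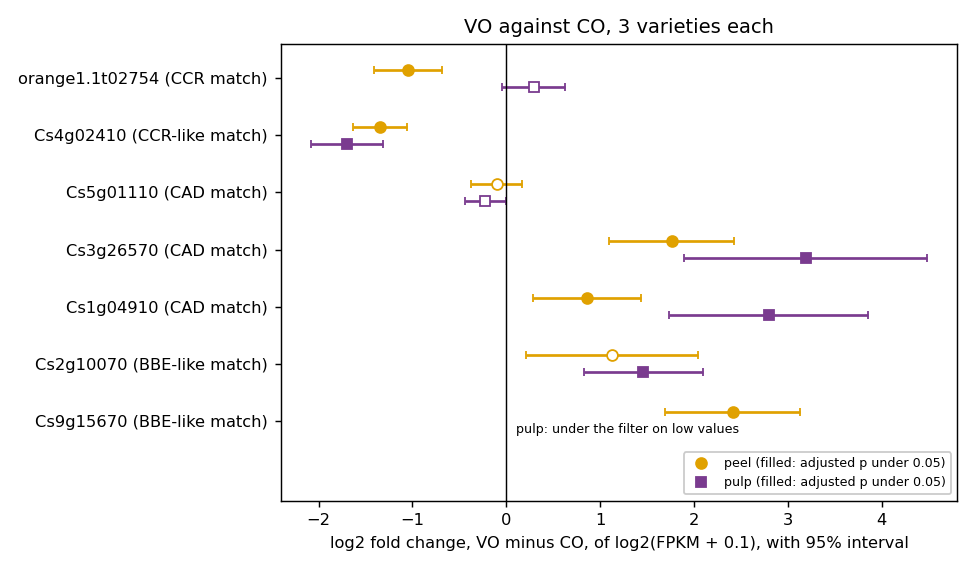
Log2 fold change (VO minus CO, of log2(FPKM + 0.1)) of the 7 genes in peel (circles) and pulp (squares), with 95% intervals from limma over 3 variety means per class. Filled symbols have an adjusted p under 0.05. The 2 CCR genes lie left of 0 in peel, and Cs3g26570 and Cs1g04910 lie right of 0 in both tissues.

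The CCR1-like gene orange1.1t02754 had the highest FPKM of the 7 in peel of COs. Its 9 CO peel libraries lay between 43.3 and 52.1 FPKM (median 46.2) and its 9 VO peel libraries between 17.4 and 27.1 FPKM (median 24.7). The classes did not overlap, and RR was the lowest variety with 17.8 ± 0.34 FPKM (SD, n = 3 libraries). Variety means averaged 47.2 ± 2.85 FPKM in COs and 23.0 ± 4.63 FPKM in VOs (SD, n = 3 varieties), and the log2 fold change was -1.05 (SE 0.15, adjusted p = 0.0073). In pulp the order was turned. CO pulp libraries held 31.7 to 39.7 FPKM (median 35.3) and VO pulp libraries 38.5 to 54.7 FPKM (median 40.2). The ranges overlapped, since TY with 39.1 FPKM stood beside CU with 39.3 and RR with 39.7 FPKM, and among the VOs only DE was apart from its neighbours with 53.7 ± 0.85 FPKM. The difference in pulp was 0.29 on the log2 scale (95% interval -0.04 to 0.63, adjusted p = 0.18).

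For this gene the difference between tissues was itself tested. The VO minus CO difference was 1.34 larger in pulp than in peel on the log2 scale (SE 0.15, adjusted p = 0.018). Pulp was below peel in all 3 COs (log2 differences of -0.46 in JC, -0.24 in TY and -0.50 in XF) and above it in all 3 VOs (0.67 in CU, 1.01 in DE and 1.15 in RR). Orange1.1t02754 made up at least 98.3% of the summed FPKM of the K09753 pair in every library, so that its neighbour orange1.1t02755 added little. The call of the tissue difference was lost when JC, XF, DE or RR was left out (adjusted p of 0.056 to 0.067), with values between 1.24 and 1.32. Calls over all 16759 genes then fell from 825 to 97, 137, 0 and 49.

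Cs4g02410, the SNL6-like gene, was lower in VOs in both tissues. CO peel libraries held 25.5 to 35.4 FPKM (median 33.2) and VO peel libraries 10.5 to 14.6 FPKM (median 11.8). CO pulp libraries held 11.7 to 16.1 FPKM (median 13.3) and VO pulp libraries 2.96 to 4.91 FPKM (median 4.44). In neither tissue did the classes overlap, although DE overlapped with CU and with RR in peel. All 3 CU peel libraries lay above the 3 of RR, and a difference among VOs was called there over libraries (limma, adjusted p = 0.0063). The means were 31.4 ± 4.11 and 12.3 ± 1.28 FPKM in peel (log2 fold change -1.35, SE 0.12, adjusted p = 0.0019) and 13.6 ± 1.69 and 4.16 ± 0.77 FPKM in pulp (-1.70, SE 0.16, adjusted p = 0.0019; SD, n = 3 varieties). Mean FPKM was thus 2.56 times as high in COs in peel and 3.27 times in pulp, and the change between the tissues was not called (-0.35, 95% interval -0.85 to 0.15, adjusted p = 0.34). These calls held under every alternative tried.

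Cs5g01110, whose Arabidopsis match CAD1 is not among the main lignin CADs of that plant, was the zinc-type CAD of the 7 with the highest FPKM and the one that varied least. It held 10.2 to 13.1 FPKM (median 12.01) in CO peel and 9.62 to 12.8 FPKM (median 10.4) in VO peel. In pulp it held 8.54 to 10.9 FPKM (median 9.06) in COs and 7.20 to 8.80 FPKM (median 8.17) in VOs. The classes overlapped in both tissues, and no pair of neighbours in the order of the 6 varieties was separated in peel. Differences were -0.10 in peel (95% interval -0.37 to 0.17, adjusted p = 0.56) and -0.22 in pulp (-0.44 to -0.00475, adjusted p = 0.13) on the log2 scale, so that log2 changes of 0.86 or more in size lie outside both intervals.

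Cs3g26570, matched to CAD6 of rice, was low in COs. CO peel libraries held 0.051 to 0.35 FPKM (median 0.14), which is 2 to 13 fragments, and VO peel libraries held 0.39 to 1.03 FPKM (median 0.81), which is 14 to 41 fragments. In pulp, CO libraries held 0 to 0.15 FPKM (median 0.047, at most 5 fragments, 1 library at 0) and VO libraries 0.46 to 3.07 FPKM (median 1.61, 19 to 116 fragments). No VO library overlapped a CO library in either tissue. Mean FPKM was 4.64 times as high in VO as in CO peel (log2 fold change 1.76, SE 0.28, adjusted p = 0.0092), in a test that the gene entered through the VOs. With every detected gene tested, the adjusted p was 0.011 in peel and 0.016 in pulp. In VO pulp the 3 varieties stood apart, with 0.50 ± 0.050 FPKM in CU, 1.62 ± 0.20 in DE and 2.61 ± 0.42 in RR (SD, n = 3 libraries). The log2 fold change in pulp was 3.19 (SE 0.54, adjusted p = 0.011) and ran from 1.19 with a pseudocount of 1 to 4.58 with 0.01. With limma's voom on the fragments it missed the threshold (4.36, adjusted p = 0.062).

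Cs1g04910, matched to CAD9 of Arabidopsis and described as a probable mannitol dehydrogenase in the other protein match, separated the classes far more in pulp. In peel, COs held 1.34 to 2.98 FPKM (median 2.34) and VOs 2.90 to 4.53 FPKM (median 3.81). A library of XF lay above the lowest library of CU, so that the classes overlapped there. Pulp of COs held 0.19 to 0.65 FPKM (median 0.31, 13 to 50 fragments) and pulp of VOs 1.15 to 4.83 FPKM (median 3.53, 89 to 355 fragments), with no overlap. Mean FPKM was 1.80 times as high in VOs in peel (log2 fold change 0.86, SE 0.24, adjusted p = 0.049) and 9.33 times in pulp (2.79, SE 0.44, adjusted p = 0.0088). The call in peel sat at the threshold and was lost under 12 of 19 alternatives, with adjusted p of 0.051 to 0.14.

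The change of this difference between tissues was 1.93 on the log2 scale (SE 0.35, adjusted p = 0.040). In COs pulp was below peel by similar amounts (log2 differences of -2.41 in JC, -2.25 in TY and -2.39 in XF), whereas the VOs ranged from -1.22 in CU through -0.19 in DE to 0.16 in RR. CU pulp with 1.42 ± 0.29 FPKM was therefore nearer to the COs than RR pulp with 4.75 ± 0.11 FPKM (SD, n = 3 libraries). This call was lost under 7 of 17 alternatives (adjusted p of 0.061 to 0.12), among them leaving out any variety but CU. Leaving out a variety also cut the calls over all genes, from 825 to between 0 (without DE) and 695 (without TY).

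**Figure D3:**
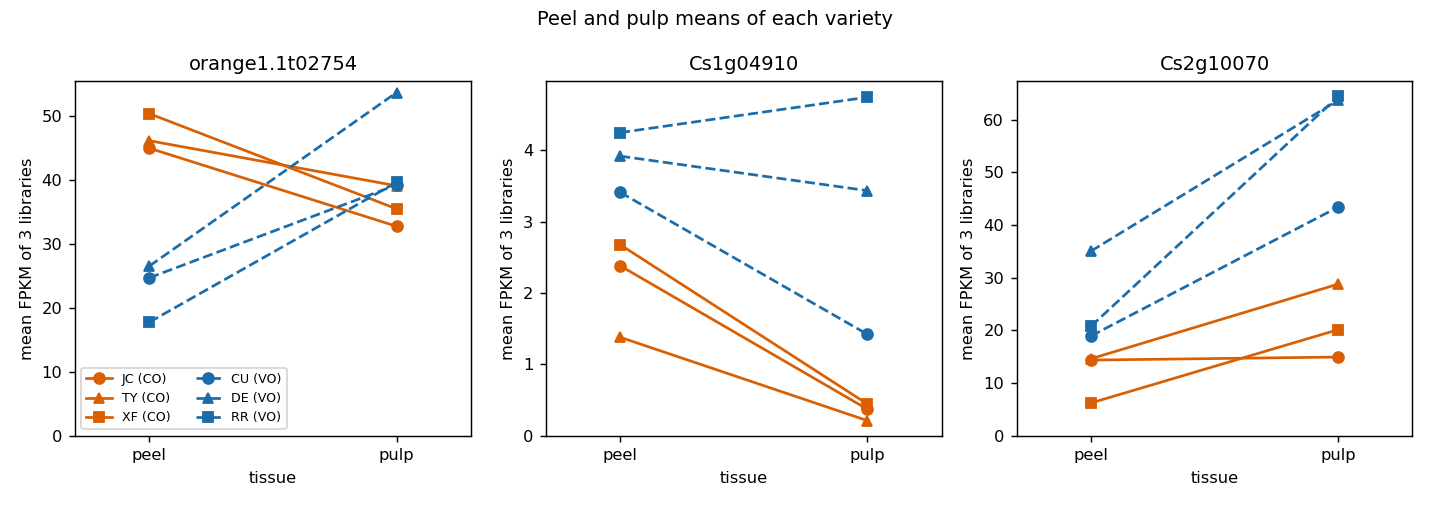
Mean FPKM of 3 libraries in peel and pulp of each variety (linear axes from 0, solid orange lines for CO, dashed blue lines for VO) for the CCR1-like gene orange1.1t02754, the CAD9-like gene Cs1g04910 and the BBE-like gene Cs2g10070. The lines of orange1.1t02754 cross, falling from peel to pulp in the COs and rising in the VOs.

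Of the 2 BBE-like genes, Cs2g10070 was the abundant one and reached the highest FPKM of the 7 in VO pulp. CO pulp libraries held 11.6 to 30.6 FPKM (median 21.2) and VO pulp libraries 41.7 to 65.3 FPKM (median 63.1), with no overlap. Mean FPKM rose from 21.3 ± 6.99 to 57.2 ± 11.9 (SD, n = 3 varieties), with a log2 fold change of 1.46 (SE 0.27, adjusted p = 0.013). Without DE or without RR it was 1.37 and 1.36 and missed the threshold (adjusted p of 0.056 and 0.058). Calls over all genes in pulp then fell from 3358 to 1343 and 1320. CO peel libraries held 5.88 to 15.0 FPKM (median 14.2) and VO peel libraries 17.5 to 36.4 FPKM (median 20.9). These did not overlap either, but varieties of a class differed widely, with 6.22 ± 0.31 FPKM in XF against 14.6 ± 0.48 in TY and 18.9 ± 1.52 in CU against 35.03 ± 2.10 in DE (SD, n = 3 libraries). The difference in peel was 1.12 (95% interval 0.21 to 2.04, adjusted p = 0.086) and was not called over varieties. It was called where the libraries served as replicates, with a correlation within varieties shared by all genes (limma's duplicateCorrelation, adjusted p = 7.8e-04). A shared correlation does not follow the wide spread between varieties of this gene. Calls over all genes in peel rose from 3740 to 5756 in that setting.

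Cs9g15670, the other BBE-like gene, was near 0 in all sets but VO peel. Fragments numbered 0 to 6 in each CO peel library and 17 to 34 in each VO peel library, which is 0 to 0.19 FPKM (median 0.067) against 0.55 to 0.98 FPKM (median 0.82). The 9 VO peel libraries lay above all CO peel libraries, and the VOs differed little among themselves, with 0.89 ± 0.070 FPKM in CU, 0.79 ± 0.21 in DE and 0.72 ± 0.15 in RR (SD, n = 3 libraries). The log2 fold change was 2.41 (SE 0.30, adjusted p = 0.0049) and the ratio of mean FPKM 10.6, on 21 fragments in COs and 226 in VOs. The gene entered this test through the VOs alone, and with every detected gene tested the adjusted p was 0.0051. In pulp 15 fragments in COs and 14 in VOs were found over 9 libraries each, with 2 and 4 libraries at 0 and no library above 5 fragments. Tested without the filter, the difference in pulp was -0.07 on the log2 scale (limma, 95% interval -0.64 to 0.51, adjusted p = 0.88). That interval leaves out the 2.41 of peel, but smaller changes were not detectable on so few fragments. Each VO peel library lay above each VO pulp library, of which the highest held 0.16 FPKM. With every detected gene tested, the pulp minus peel difference was -1.42 on the log2 scale (SE 0.21, adjusted p = 0.0012) and the change of the VO minus CO difference from peel to pulp was -2.48 (SE 0.41, adjusted p = 0.039), on few fragments in 3 of the 4 sets.

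Counting libraries instead of variety means, 5 of 7 genes had no overlap between the 9 VO and the 9 CO libraries in peel (17.7% of all genes tested) and 4 of 6 in pulp (18.3%), with Cs9g15670 and Cs3g26570 among the former and Cs3g26570 among the latter. A stricter rule asked for an adjusted p under 0.05 and a log2 fold change of at least 1 with the same sign in all 9 pairs of a VO with a CO variety. Cs9g15670 and Cs3g26570 met it in peel (2.81% of all genes) and Cs4g02410, Cs3g26570 and Cs1g04910 in pulp (3.79%). Both genes in peel, and Cs3g26570 in pulp, entered through the VOs alone, so they add no support to these counts. In peel, no member that reached the limit of the filter in both classes met the rule. The smallest of the 9 differences were 1.78 for Cs9g15670 and 1.14 for Cs3g26570 in peel. In pulp the differences ran from -2.20 to -1.35 for Cs4g02410, from 1.72 to 4.31 for Cs3g26570 and from 1.51 to 3.96 for Cs1g04910. Without replicate 1 or without replicate 3, 1 gene met the rule in peel, and with a pseudocount of 1 none did in peel and 1 in pulp. Nothing in the labels says which libraries share a tree or a day, so the p-values of these library tests measure the spread between libraries, which may be partly technical.

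Varieties of the same class differed as well. Among the 3 COs, 6 of the 7 genes differed in peel (40.1% of all genes tested) and 5 of 6 in pulp (54.8%), and among the 3 VOs 4 of 7 in peel (41.1%) and 5 of 6 in pulp (28.4%). Those that did not were Cs3g26570 in both tissues of the COs, Cs9g15670, Cs3g26570 and Cs1g04910 in VO peel, and Cs5g01110 in VO pulp. Cs9g15670 is among the 6 of CO peel, though it entered through the VOs alone. Its call there rests on 13 fragments in JC, 2 in TY and 6 in XF. Without replicate 1, 2 genes in place of 5 differed among COs in pulp. The order of VOs was alike for 2 genes in pulp, CU below DE below RR with separate library ranges for Cs3g26570 and Cs1g04910, while for Cs2g10070 DE and RR overlapped. Over the 6 pulp means, Cs3g26570 and Cs1g04910 had an r of 0.99, and over the 6 peel means Cs9g15670 and Cs3g26570 had an r of 0.97. Orange1.1t02754 and Cs4g02410 had an r of 0.94 over the peel means and of -0.79 over the pulp means. These are descriptions of 6 points that share libraries and fall in 2 classes.

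Pulp and peel were compared over the 6 varieties. The median of all 16759 genes was -0.18 (pulp minus peel, log2 scale), with 23.6% called higher and 48.3% lower in pulp, and scaling by the median of ratios moved it to -0.01 and the calls from 3958 higher and 8088 lower to 5795 and 5906. Calls were made for 5 of the 6 genes tested. Cs2g10070 was higher in pulp (1.06, SE 0.21, adjusted p = 0.0041, and 1.24 relative to the median of all genes), as was orange1.1t02754 (0.27, SE 0.08, adjusted p = 0.017, and 0.45 relative to the median), whose mean hides the opposite directions in COs and VOs. Lower in pulp were Cs4g02410 (-1.37, SE 0.10, adjusted p = 7.5e-05, and -1.19 relative to the median), Cs1g04910 (-1.38, SE 0.18, adjusted p = 5.4e-04, and -1.20) and Cs5g01110 (-0.36, SE 0.07, adjusted p = 0.0045, and -0.18). The mean of Cs1g04910 covers unlike classes, with -2.41 to -2.25 in COs against -1.22 in CU, -0.19 in DE and 0.16 in RR. The call of Cs5g01110 was lost with either other scaling (adjusted p of 0.055 and 0.058). For Cs3g26570 the difference was 0.02 (95% interval -0.70 to 0.74, adjusted p = 0.95). Of all genes tested, 2.83% were called for a VO minus CO difference that was higher in pulp and 2.09% for one that was lower. Among the 6 members tested, those called were the 2 genes described above, and both had the higher difference in pulp. Cs9g15670 is not among these 6.

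The place of the listed genes among those of the same KEGG number was described from shares of summed FPKM. These lists by KEGG number were added after the descriptions had been read. The shares are of transcript levels per length of gene span, and enzyme activity was not measured. The 8 genes of K00083 summed to a median of 406.9 FPKM per library in CO peel, 307.9 in VO peel, 83.9 in CO pulp and 115.7 in VO pulp. In peel 4 of the 8 were called higher in VOs and none lower, and in pulp 2 of 7 tested were called higher and none lower, beside the shares over all genes given above. Cs3g26570, let in through the VOs alone, is among the 4 and among the 2, and its call adds no support to these counts. Cs1g20580, the most abundant in peel, had means of 292.1 ± 38.3 FPKM in COs and 173.0 ± 53.9 FPKM in VOs (SD, n = 3 varieties; log2 fold change -0.79, SE 0.23, adjusted p = 0.052) and so was not called. The sums themselves were not tested, and library ranges of the classes overlapped. They were 364.7 to 455.1 FPKM in CO and 264.2 to 408.4 in VO peel, and 76.4 to 127.2 in CO and 89.1 to 124.0 in VO pulp. The 3 zinc-type genes of the 7 were a small part of these sums. Cs5g01110 made up a median of 2.78% in CO peel, 3.39% in VO peel, 10.6% in CO pulp and 7.32% in VO pulp. The median share of Cs1g04910 was 0.53% and 1.15% in CO and VO peel and 0.40% and 2.98% in CO and VO pulp, and that of Cs3g26570 reached 1.35% in VO pulp. Most of the sum came from 4 genes that match a mannitol dehydrogenase of strawberry (Cs1g20580 with a median of 73.3% in CO peel) and from Cs8g04980, which matches a CAD of Eucalyptus and had 29.9% in CO pulp and 30.7% in VO pulp. Of those 4, Cs1g20610 added little, with a median share of at most 0.18% (in VO peel). Cs8g04980 was not called between VOs and COs in either tissue (peel -0.29 with an adjusted p of 0.16, pulp 0.35 with an adjusted p of 0.32). Within K22395 the picture was the reverse, since Cs2g10070 made up a median of 75.7% and 75.4% in CO and VO peel and of 95.1% and 99.3% in CO and VO pulp. The rest in peel was mainly Cs9g15750, a BBE-like gene also listed as CAD by the study, whose peel means were 2.64 ± 1.96 FPKM in COs and 7.34 ± 0.97 FPKM in VOs (SD, n = 3 varieties). It fell in VO pulp, from 1.03 ± 0.25 to 0.41 ± 0.10 FPKM (log2 fold change -1.28, SE 0.26, adjusted p = 0.018), and its difference in peel missed the threshold (1.67, adjusted p = 0.052).

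**Figure D4:**
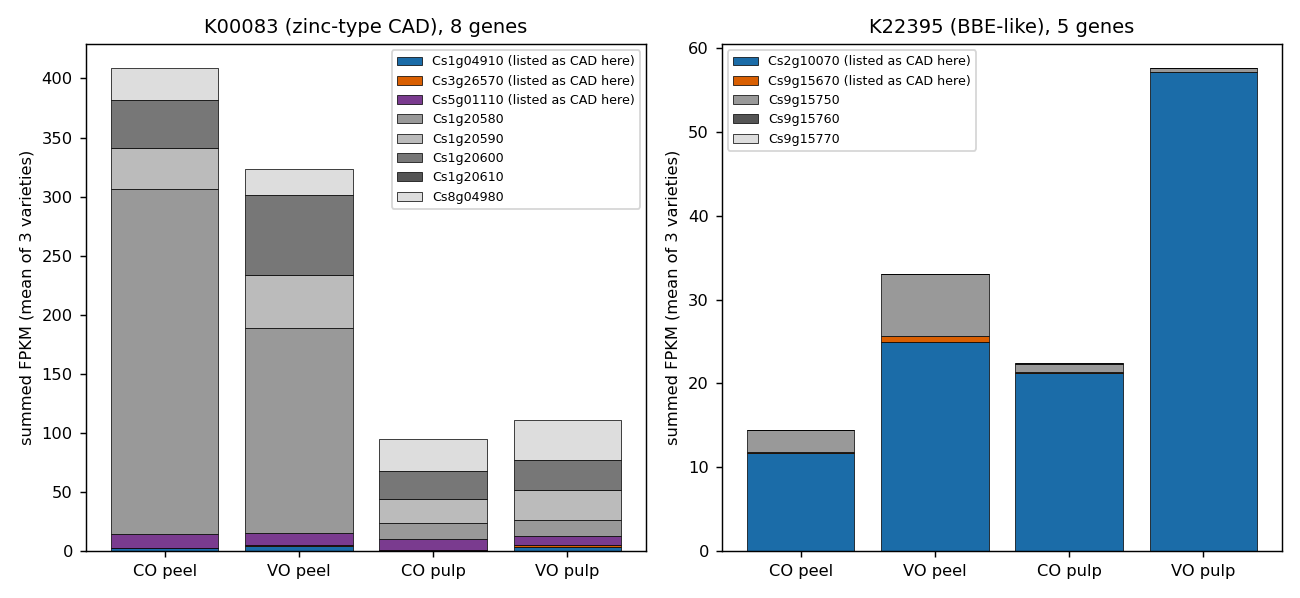
Summed FPKM (bar height from 0, mean of 3 varieties, stacked from the bottom in the order of the legend) of the genes with KEGG number K00083 and of those with K22395 in CO and VO peel and pulp. Coloured parts are genes of the 7 and grey parts the others. Cs2g10070 fills most of the K22395 bars, while the 3 coloured genes are a thin base of the K00083 bars.

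Other genes described as CCR or CAD moved in both directions. Of the 14 outside the 7, 10 were tested in peel, where 1 rose and 2 fell in VOs, and 9 in pulp, where 1 rose and 2 fell. Their median log2 differences were -0.11 in peel and 0.03 in pulp. The counts stand beside the shares over all genes given above and were not tested against them. Cs8g20610, with a CCR1 match, rose in VOs of both tissues. Its peel means were 24.7 ± 1.19 FPKM in COs and 39.6 ± 2.23 FPKM in VOs (0.68, SE 0.07, adjusted p = 0.0026), and its pulp means 25.9 ± 1.07 and 32.6 ± 0.41 FPKM (0.33, SE 0.06, adjusted p = 0.015; SD, n = 3 varieties). Cs2g30460, also with a CCR1 match, fell in both (peel log2 fold change -0.63, adjusted p = 0.022, and pulp log2 fold change -1.47, adjusted p = 0.016). Its neighbour Cs2g30470 fell by 0.65 in pulp (adjusted p = 0.012) and showed 0.05 in peel (adjusted p = 0.79). Orange1.1t02755 fell by 1.44 in peel (adjusted p = 0.040), from a mean of 0.63 FPKM to 0.19 FPKM. That call rests on few fragments, 13 to 45 in each CO peel library and 1 to 24 in each VO peel library. Cs5g25200, which like Cs4g02410 matches SNL6 and had the highest mean of this group with 41.3 FPKM over 36 libraries, gave a log2 fold change of -0.01 for peel (adjusted p = 0.90) and one of -0.07 for pulp (adjusted p = 0.80).

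The other 23 phenylpropanoid genes listed by the study, which it chose on these samples, also went both ways. Of 20 tested in peel 3 rose and 6 fell in VOs, with a median of -0.07, and of 20 tested in pulp 6 rose and 2 fell, with a median of 0.19. These counts too stand beside the shares over all genes given above and were not tested against them. Cs8g04980, called in neither tissue, is in this list and also among the other genes described as CCR or CAD. At the entry of the pathway, the phenylalanine ammonia-lyase gene Cs6g11940 fell in peel from 111.7 ± 17.4 to 37.5 ± 4.003 FPKM (-1.57, SE 0.13, adjusted p = 0.0017) and was higher in VO pulp (0.37, SE 0.09, adjusted p = 0.029), and its neighbour Cs6g11950 fell in peel (-1.49, SE 0.26, adjusted p = 0.012). Of the methyltransferases that add the methoxyl groups of monolignols, the caffeoyl-CoA O-methyltransferase gene Cs1g12670 rose in peel (1.60, SE 0.25, adjusted p = 0.0089) and in pulp (2.44, SE 0.36, adjusted p = 0.0073), and Cs8g05410 rose in pulp (1.64, SE 0.31, adjusted p = 0.015) and fell in peel (-0.28, SE 0.07, adjusted p = 0.031), with a called change between tissues (1.92, SE 0.34, adjusted p = 0.039). The caffeic acid O-methyltransferase gene Cs5g16290 rose in pulp from 0.88 ± 0.31 to 10.8 ± 2.35 FPKM (3.52, SE 0.26, adjusted p = 0.0010; SD, n = 3 varieties).

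For each of the 7, the 2 genes of most similar pattern were sought among the 16327 genes whose mean reached 1 FPKM in some set, by Pearson's r of log2(FPKM + 0.1) over the 12 means of variety and tissue. Nearest to orange1.1t02754 was Cs5g27570, with a cytochrome P450 82A3 match (r = 0.92), before Cs4g12750 without a Swissprot match (0.92). Cs4g02410 was followed by orange1.1t03532, a Shewanella-like protein phosphatase 2 match, and Cs5g05090 (both 0.98). For Cs5g01110 they were Cs7g19670, matched to the mitochondrial APO protein 3 (0.97), and Cs9g06300, matched to a subunit of the NEDD8-activating enzyme (0.96). Cs3g26570 was closest to Cs8g04525, described as an arabinogalactan protein, and Cs7g04900 (both 0.98). Cs1g04910 was closest to Cs2g30260, a chloroplast dicarboxylate transporter match, and Cs5g09680, an AT-hook protein match (both 0.97). Cs2g10070 went with Cs3g02570, matched to a remorin (0.97), and Cs2g17040, matched to an HMG-Y-related protein (0.96), and Cs9g15670 with Cs2g17910, a probable ascorbate ferrireductase match (0.98), and Cs9g18920, matched to a membrane-associated kinase regulator (0.97). These are the highest of many correlations over 12 points that share libraries, and are given as a description.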

How the data were processed

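RNA was poly-A selected, libraries were made with a kit that does not mark strand, and the submitters' processing notes name TopHat2, RSEM and DESeq (version 1.10.1). The genome build was not given in the sources used here. The deposited values are FPKM computed by the authors for 29654 genes, and were not scaled further. FPKM multiplied by gene length gave whole fragments in 100% of values (within 0.02), and hence the depth of each library. Libraries were grouped by variety and tissue labels. The 36 pairs of libraries of the same set differed by 2.11 to 4.27 times counting noise per gene, so none was a duplicate. Tests used limma (version 3.58.1, R 4.3.3) with its trend option, with Benjamini-Hochberg adjustment over every gene kept, and were tested on simulated data. Tissue differences used pulp minus peel per variety. Tables and plots were made with Python 3.11.15, pandas 2.3.3 and matplotlib 3.10.9. Alternatives changed the pseudocount, filter, scaling, replicate unit, block, weights and samples. The genes and lists were chosen with earlier results of these data known. Named genes outside the 7 were those of highest mean or largest called change, and the 2 of most similar pattern. FPKM intervals of replicates do not cover errors of counting between gene copies.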

Additional observations from a re-analysis of the deposited data

Results flagged for a closer look

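The VO minus CO difference of 2 genes changed between the tissues by a test of that change itself. For orange1.1t02754 the difference was 1.34 larger in pulp than in peel on the log2 scale (limma, adjusted p = 0.018), with pulp below peel in 3 of 3 COs and above it in 3 of 3 VOs. For Cs1g04910 the difference was 1.93 larger in pulp (limma, adjusted p = 0.040), with a drop from peel to pulp in 3 of 3 COs that was larger than in any VO. No library of the 7 genes stood far from the other 8 of its class and tissue, in 28 sets of 9 libraries. Each gap was set against the range over 3 varieties, so a stray library within a variety could go unflagged. The XF pulp libraries of Cs1g04910, for instance, held 0.65, 0.31 and 0.37 FPKM.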

How the results depend on the processing

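Of 450 values of single genes under alternatives, 413 kept their side of the threshold, 30 lost and 7 gained a call, and no called value turned its direction. Of 108 counts, 94 stayed within 1.5 times. The count of genes whose difference depended on tissue was 2, and became 1 with a pseudocount of 1, 4 with the replicate block, 0 without JC, XF, DE or RR, 1 without TY, and 1 to 2 without a replicate. Over all genes, 825 of 16759 were called. This became 1394 with a pseudocount of 1 and 6127 with the replicate block. It became 97, 137, 0 and 49 without JC, XF, DE and RR, and 695 without TY. The rule over all 9 pairs gave 2 genes in peel, 0 with a pseudocount of 1, 6 without the fold limit and 1 to 3 without a replicate, and 3 genes in pulp, 1 with a pseudocount of 1. Both genes in peel, and Cs3g26570 in pulp, had entered through the VOs alone. Genes that differed among COs in pulp were 5, and 2 to 5 without a replicate. Replicate numbers gave no sign of a pairing between varieties. After the mean of each variety and tissue was subtracted, the deviations of same-numbered libraries of different varieties had correlations of -0.049 to 0.035 in peel and -0.081 to 0.078 in pulp. The replicate block, which counts libraries as replicates, added calls for Cs2g10070 in peel (adjusted p = 8.9e-04), and for orange1.1t02754 (0.0079) and Cs5g01110 (0.0044) in pulp. It raised the calls over all genes from 3740 to 9053 in peel and from 3358 to 8882 in pulp. The correlation within varieties shared by all genes added orange1.1t02754 in pulp (0.012), where calls over all genes rose to 5517. Without DE or RR the pulp against peel call of orange1.1t02754 was lost (0.053 and 0.055). Cs3g26570 and Cs9g15670 rest on few fragments in COs.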
